A study of Mus musculus with 4 samples.

Results

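Leydig cells are the steroid-producing cells between the tubules of the testis, and 317 barcodes of 23670 were taken as such in 4 single-cell RNA libraries of mouse testis. A barcode is the tag that marks the transcripts of 1 droplet, and a UMI (unique molecular identifier) is 1 counted transcript. Barcodes were first kept when they had at least 500 genes and at most 20% mitochondrial UMIs. A kept barcode was called a Leydig barcode when Cyp11a1, Hsd3b1 and Star together had at least 5 UMIs and at least 0.2% of its UMIs, with at most 2 UMIs of the germ cell genes Ddx4 and Dazl. The levels of these 5 genes therefore chose the members, and their values below are a description.

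The mice were Acr-Gfp tg animals on C57BL/6, so every group carries a transgene with the promoter of Acr, a gene of male germ cells. In 1 pair of libraries, testes taken at 7 days postpartum (dpp) were kept as fragments on agarose for 2 or 7 days, in α-MEM with AlbuMAX and under a PDMS ceiling chip. The other pair came from testes taken at 9 dpp and at 14 dpp. Culture time and starting age add up to the in vivo ages, so the 2-day culture was set against 9 dpp and the 7-day culture against 14 dpp. The labels give the same culture text for all 4 samples, speak of female gonads in the library text, and do not give the number of animals. The 317 Leydig barcodes were 90 from the shorter and 64 from the longer culture, 74 from 9 dpp and 89 from 14 dpp. Each group is 1 library, so no difference has a replicate check, no test was run, and culture cannot be told apart from the library it was measured in.

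Leydig cells bind luteinizing hormone through Lhcgr, which acts through cyclic AMP and keeps up cholesterol supply and steroid enzymes. Star carries cholesterol into the mitochondrion, Cyp11a1 cuts its side chain to give pregnenolone, Hsd3b enzymes convert this to progesterone, and Cyp17a1 makes androgen from it. A first, fetal population persists after birth in mice, and an adult population arises from stromal progenitors before puberty and comes to use Hsd3b6. Cultured fragments receive no pituitary hormone unless it is added, and none is named in the labels.

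Whole-library facts were as follows. The libraries held 34491701 to 60829941 UMIs over 5149 to 7710 deposited barcodes. Leydig barcodes had median depths of 7278 and 9601.5 UMIs in culture (2 and 7 days) and of 12491 and 13341 in vivo (9 and 14 dpp), and 656997 to 1323448 UMIs in all. Their median mitochondrial share lay between 3.71% (7-day culture) and 5.82% (14 dpp). The libraries shared 323 barcode sequences over all pairs, and 0 of the Leydig barcodes were shared. Levels are given in CPM, a gene's UMIs per 1000000 UMIs of the Leydig barcodes of a library, and 1 UMI was worth between 0.756 CPM (14 dpp) and 1.52 CPM (7-day culture). Where 4 values follow each other without names, their order is 2 days, 7 days, 9 dpp and 14 dpp. Ratios are log2 of CPM + 1, first for the 2-day culture over 9 dpp and then for the 7-day culture over 14 dpp unless said otherwise, and the added 1 makes them smaller for low genes. Values in parentheses after a level or ratio are exact 95% intervals that cover counting error only.

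The windows shown here lie in front of the start sites of 6 genes that the results turn on: the enzymes Cyp11a1, Hsd3b1 and Hsd3b6, the hormone Insl3, the renin gene Ren1 and the acute phase gene Saa3. Each is 250 bases, read 5′ to 3′ on the gene's strand, from the RefSeq promoter table of GRCm38.p6. Of 2 Cyp11a1 start sites in that table, the window with motif matches is printed. Start sites and motif offsets follow that table, while the gene positions given further below follow another annotation. By those positions the printed Cyp11a1 window lies inside the gene, and the windows of Insl3, Ren1 and Saa3 run past the gene start. The intervals are chr9:58014702-58014951 on the plus strand for Cyp11a1, chr3:98859795-98860044 on the minus strand for Hsd3b1, chr3:98814444-98814693 on the minus strand for Hsd3b6, chr8:71689002-71689251 on the plus strand for Insl3, chr1:133350424-133350673 on the plus strand for Ren1 and chr7:46715677-46715926 on the minus strand for Saa3. Capitals mark motif matches.
Cyp11a1: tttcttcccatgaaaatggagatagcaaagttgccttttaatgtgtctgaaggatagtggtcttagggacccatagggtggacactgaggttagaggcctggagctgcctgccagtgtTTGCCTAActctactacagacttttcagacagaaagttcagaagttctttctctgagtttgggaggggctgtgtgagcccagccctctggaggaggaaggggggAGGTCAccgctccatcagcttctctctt
Hsd3b1: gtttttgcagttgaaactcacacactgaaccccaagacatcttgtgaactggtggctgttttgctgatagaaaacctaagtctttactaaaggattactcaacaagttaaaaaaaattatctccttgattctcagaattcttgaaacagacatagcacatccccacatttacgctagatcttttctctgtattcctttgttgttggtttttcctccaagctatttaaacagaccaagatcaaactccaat
Hsd3b6: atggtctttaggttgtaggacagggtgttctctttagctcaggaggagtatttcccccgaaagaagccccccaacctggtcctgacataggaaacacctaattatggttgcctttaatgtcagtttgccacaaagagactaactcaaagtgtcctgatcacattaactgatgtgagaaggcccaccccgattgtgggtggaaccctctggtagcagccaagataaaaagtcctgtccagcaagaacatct
Insl3: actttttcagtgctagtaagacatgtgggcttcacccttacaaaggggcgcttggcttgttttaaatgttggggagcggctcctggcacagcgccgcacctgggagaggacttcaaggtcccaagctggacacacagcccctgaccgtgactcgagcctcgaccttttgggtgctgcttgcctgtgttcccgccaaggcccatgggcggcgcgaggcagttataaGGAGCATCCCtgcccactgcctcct
Ren1: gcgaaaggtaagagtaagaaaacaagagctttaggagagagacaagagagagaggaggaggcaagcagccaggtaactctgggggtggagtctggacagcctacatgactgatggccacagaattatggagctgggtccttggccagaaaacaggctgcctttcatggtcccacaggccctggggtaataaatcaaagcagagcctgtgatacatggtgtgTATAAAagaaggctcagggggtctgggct
Saa3: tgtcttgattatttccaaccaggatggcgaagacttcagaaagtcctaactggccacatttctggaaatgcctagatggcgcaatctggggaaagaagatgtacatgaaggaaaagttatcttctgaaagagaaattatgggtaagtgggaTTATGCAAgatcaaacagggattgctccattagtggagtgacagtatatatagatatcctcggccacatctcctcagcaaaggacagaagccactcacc

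Motifs were searched on both strands in 8 windows, these 6 with the other Cyp11a1 window and the one of Lhcgr. The first search took AAGGTCA, the core of the site bound by Nr5a1, with its known variant AAGGCCA, and also TGACGTCA, the cyclic AMP response element. It gave 0 matches in the 8 windows, against 4.08%, 5.245% and 1.55% of the 32851 windows in the table. AGGTCA (a nuclear receptor half-site, which lies inside the first motif), then TATAAA (the core of the TATA box), then TTGCNNAA (a C/EBP site) and a consensus site of NF-kB were added only after that result was seen. They occur in 14.0%, 12.4%, 9.56% and 3.86% of all windows. The printed Cyp11a1 window held TTGCNNAA from −132 to −125 and AGGTCA from −28 to −23, both on the gene's strand and counted from the start site. Insl3 held the NF-kB consensus on the opposite strand from −25 to −16, Ren1 held TATAAA on its strand from −29 to −24, and Saa3 held TTGCNNAA on the opposite strand from −99 to −92. Lhcgr held AGGTCA from −122 to −117, and the windows of Hsd3b1, Hsd3b6 and the other Cyp11a1 start held none of the 7. A match describes letters and does not show binding. Star, Cyp17a1, Hp and Cyp21a1 had no entry in the table.

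The label was checked in each library against Insl3, the peptide hormone of Leydig cells, and Cyp17a1, which took no part in the choice. In vivo, 73 of 74 barcodes at 9 dpp and 80 of 89 at 14 dpp held UMIs of both, and 0 lacked both. In culture, 9 of 90 barcodes held both after 2 days and 15 of 64 after 7 days, while 43 and 27 had neither. At least 2 of the 3 choosing genes had 2 or more UMIs in 68 of 90, 56 of 64, 73 of 74 and 89 of 89 barcodes, in the order 2-day culture, 7-day culture, 9 dpp and 14 dpp. Cyp11a1 alone gave at least 90% of the choosing UMIs in 34 of the 2-day barcodes, 5 of the 7-day ones, 0 at 9 dpp and 1 at 14 dpp. The marker check thus held for nearly every in vivo barcode and for only some of the cultured ones, which are steroid enzyme barcodes by their rule.

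Barcodes just inside the rule, with 0.2% to 0.25% of choosing UMIs, numbered 9, 1, 5 and 6 in the same order, and those just outside, from 0.15% to 0.2%, numbered 10, 3, 4 and 7. At 9 dpp all 5 just inside and all 4 just outside held Cyp17a1 UMIs, at 3429 and 3822 CPM. In the 2-day culture 0 of 9 just inside and 1 of 10 just outside did, while 4 and 4 of them held Insl3 UMIs, at 153 and 149 CPM. A further 2, 1, 1 and 9 barcodes met the choosing levels and were left out for more than 2 UMIs of Ddx4 and Dazl.

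Markers of other cell types were present at several levels, and their part in the results was not tested. The macrophage list of 12 genes summed to 30.7, 0, 5.43 and 359 CPM, against 52.7, 310, 187 and 210 in the other barcodes. Of its genes, 8, 12, 9 and 0 were at 0 UMIs, and at 14 dpp 6 barcodes held at least 3 such UMIs, 1 of them 131. The Sertoli list of 12 genes summed to 1266, 927, 1033 and 768 CPM, against 3869.8 to 5388 CPM in the other barcodes, and 76, 51, 67 and 85 barcodes held at least 3 of its UMIs. Ctsl, a protease that many cell types make, gave most of that sum in culture, at 1084 and 747 CPM. The 9 genes of the list other than Ctsl, Aard and Trf, a choice made after the values were seen, summed to 64.2, 21.3, 159 and 55.2 CPM, and 1 barcode at 9 dpp held 108 UMIs of them. Amh and Fshr, which define Sertoli cells, were at 0 UMIs in both cultures and at 14 dpp. The stromal list summed to 2247, 1708, 1834 and 1923 CPM, against 5584, 3405, 1823 and 1220 in the other barcodes, so in vivo it was not lower in Leydig barcodes. At least 3 of its UMIs were held by 71, 46, 70 and 83 barcodes. The myoid list summed to 326, 189, 334 and 397 CPM, against 1373 to 2154 in the other barcodes. The endothelial list summed to at most 44.4. The pericyte list summed to 41.8, 174, 51.6 and 61.2 CPM, and 14 barcodes of the 7-day culture held at least 3 of its UMIs, 1 of them 28, against 62.2 CPM in the other barcodes of that library. The adrenal-like list of 6 genes summed to 484, 139, 255 and 694 CPM, against 4.46 to 30.3 in the other barcodes. Mrap, 1 of its genes, alone gave 452, 137, 75.2 and 518 CPM. Cyp21a1, Cyp11b1 and Cyp11b2 were at 0 UMIs in the 2-day culture, and Cyp11b1, Cyp11b2, Mc2r and Akr1b7 in the 7-day culture. In vivo, Cyp11b2 and Mc2r were at 0 UMIs. Scrublet, a doublet caller, marked 1 of the 317, at 14 dpp.

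Leydig barcodes made up about the same share of all 4 libraries. The share was 1.26% (1.02 to 1.55) in the 2-day culture and 1.40% (1.10 to 1.75) at 9 dpp. It was 1.30% (1.01 to 1.66) in the 7-day culture and 1.40% (1.13 to 1.73) at 14 dpp. The log2 ratio of shares was −0.15 (−0.59 to 0.29) for the 2-day pair and −0.11 (−0.57 to 0.35) for the 7-day pair, and both intervals hold 0. When at least 2 of the choosing genes were required, the 2-day ratio was −0.53 (−1.01 to −0.06), and without the barcodes with at least 3 UMIs of Spp1 it was −0.49 (−0.96 to −0.02).

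The 3 choosing genes themselves had unlike patterns across the libraries. Cyp11a1 (chromosome 9, 58006411 to 58027023, plus strand in GRCm38, as for the positions that follow) had 4989 (4826 to 5155) CPM after 2 days, 4693 (4528 to 4861) after 7 days, and in vivo 3689.9 (3577 to 3805) at 9 and 3639.7 (3538 to 3744) at 14 dpp. Hsd3b1 (chromosome 3, 98852194 to 98859794, minus strand) had 1524 (1435 to 1617) CPM after 2 days, 4603 (4440.2 to 4769.8) after 7 days, and in vivo 4966 (4835 to 5099) at 9 and 2829.7 (2739.8 to 2922) at 14 dpp. Star (chromosome 8, 25806555 to 25815982, plus strand) had 499 (449 to 554) CPM after 2 days, 108 (84.4 to 136) after 7 days, and in vivo 933 (877 to 992) at 9 and 1066 (1011 to 1123) at 14 dpp. The 2-day culture was low in Hsd3b1 and the 7-day culture in Star, while Cyp11a1 differed little. When barcodes were chosen by the other 2 genes only (at least 4 UMIs and 0.15%), Cyp11a1 had 5235, 4489, 3901 and 3800.4 CPM, Hsd3b1 1328, 4499, 5240.3 and 2841 CPM, and Star 451.1, 104.0, 899 and 1042 CPM. The intervals of Hsd3b1 so chosen, 1248 to 1413 after 2 days and 5100.5 to 5383 at 9 dpp, did not overlap those of the levels first given. Over all kept barcodes, which no choice by these genes touches, Star had 25.8 (24.1 to 27.5), 6.70 (5.91 to 7.58), 23.1 (21.9 to 24.4) and 37.1 (35.5 to 38.7) CPM. There the 2-day level was not below that at 9 dpp, and 41.1% of the Star UMIs of that library lay in Leydig barcodes against 73.6% at 9 dpp.

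**Figure D1:**
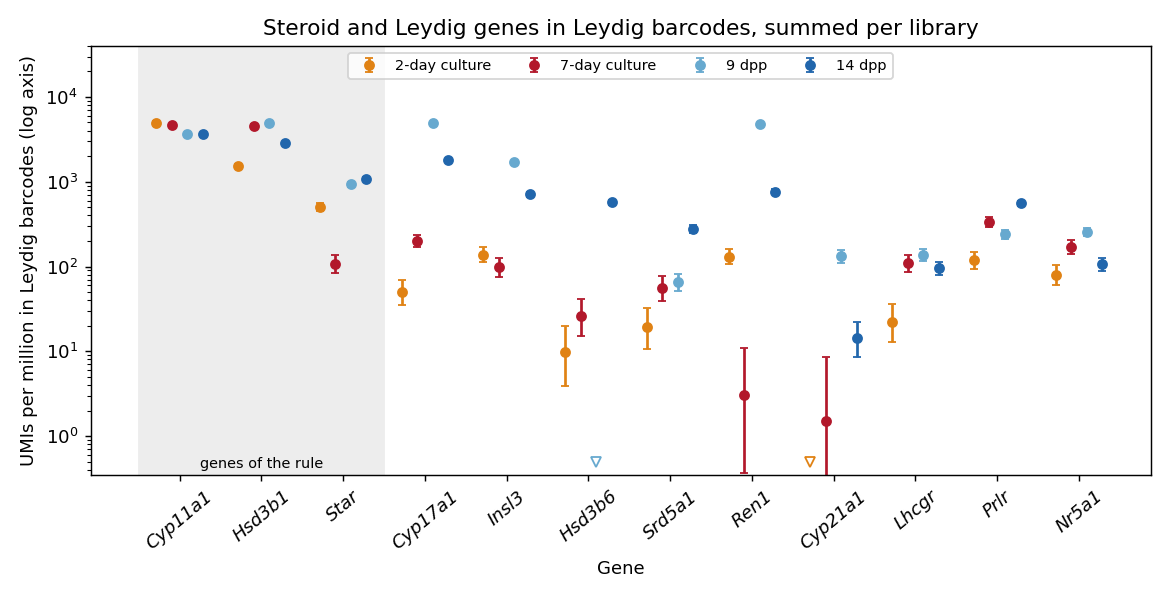
Levels of 12 genes in Leydig barcodes, in CPM on a log axis, with 1 point per library and exact Poisson 95% intervals. Open triangles at the bottom mark libraries with 0 UMIs, and the grey band marks the genes that chose the barcodes. Cyp17a1 and Ren1 lie lower in both cultures than at 9 and 14 dpp, while Cyp11a1 stays within 3639.7 to 4989 in all 4 libraries.

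Insl3 and Cyp17a1, the markers outside the rule, were both far lower in culture. Insl3 (chromosome 8, 71689214 to 71690575, plus strand) had 138 (112 to 168) CPM after 2 days, 97.4 (75.0 to 124) after 7 days, and in vivo 1697 (1621 to 1776) at 9 and 709.5 (665 to 756) at 14 dpp. It was detected in 42, 28, 73 and 83 barcodes. Its log2 ratio was −3.61 (−3.93 to −3.33) for the shorter culture and −2.85 for the longer one, so both cultures lay below both in vivo libraries. Cyp17a1 (chromosome 19, 46667165 to 46673172, minus strand) had 50.2 (35.2 to 69.5) CPM after 2 days, 201 (168 to 238) after 7 days, and in vivo 4892 (4762 to 5024) at 9 and 1783 (1712 to 1857) at 14 dpp. It was detected in 14, 24, 74 and 86 barcodes, and its log2 ratios were −6.58 (−7.12 to −6.14) and −3.14 (−3.41 to −2.90). With each barcode given the same weight, the 7-day Cyp17a1 ratio was −3.86. In vivo both genes were also lower at 14 than at 9 dpp, with ratios of −1.26 (−1.37 to −1.14) for Insl3 and −1.46 (−1.53 to −1.39) for Cyp17a1. Cyp17a1 was higher in the 7-day than in the 2-day culture, by 1.98 (1.46 to 2.57), with 28.8% of its 7-day UMIs in 1 barcode.

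The lower sums went with fewer barcodes that had any UMI, also at equal depth. After each barcode was thinned to 2000 UMIs, which left out 4, 1, 2 and 0 barcodes, Cyp17a1 was seen in 9.30%, 14.3%, 98.6% and 79.8%. Before thinning it was seen in 15.6% and 37.5% of the cultured barcodes, in all 74 at 9 dpp and in 96.6% at 14 dpp. Insl3 was seen in 24.4%, 14.3%, 88.9% and 69.7% after thinning and in 46.7%, 43.8%, 98.6% and 93.3% before. Germ barcodes, which should lack these transcripts and had median depths of 4481, 7304, 11952 and 7999 UMIs, showed either gene in at most 0.536% after thinning. Both genes were thus well above free RNA in all 4 libraries.

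**Figure D2:**
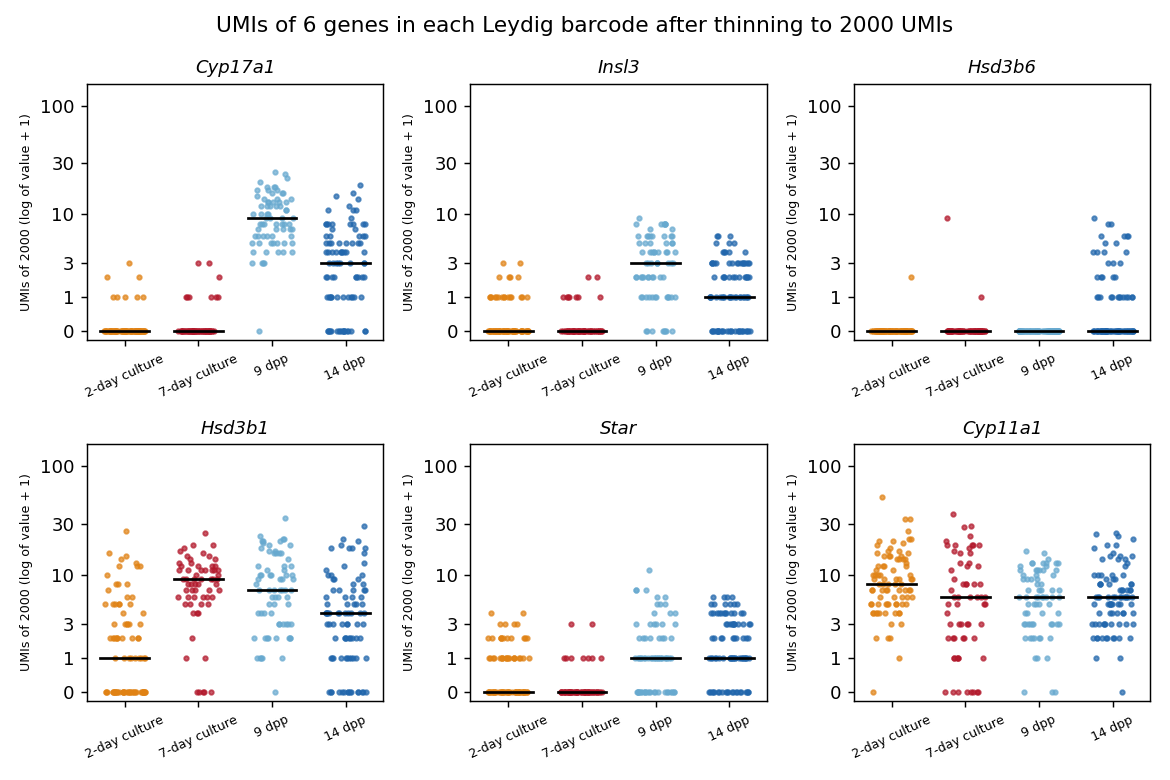
UMIs of 6 genes in each Leydig barcode after thinning to 2000 UMIs, on an axis of log of the value plus 1, with 1 point per barcode and the median as a black line. At 9 and 14 dpp most barcodes have Cyp17a1 UMIs (98.6% and 79.8%), in culture few do (9.30% and 14.3%), and Hsd3b6 splits the 14 dpp barcodes.

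Most Cyp17a1 and Insl3 transcripts lay inside the chosen barcodes in every library. Leydig barcodes held 83.7%, 91.7%, 83.9% and 74.9% of the Cyp17a1 UMIs of all kept barcodes, and 63.1%, 68.8%, 74.0% and 63.1% of those of Insl3. Over all kept barcodes, Cyp17a1 had 1.27 (0.921 to 1.71), 3.77 (3.18 to 4.44), 107 (104 to 109) and 54.2 (52.4 to 56.2) CPM. Among barcodes outside the rule, at least 3 UMIs of Cyp17a1 were found in 0, 1, 35 and 50, and at least 3 of Insl3 in 6, 2, 58 and 61. Of the Leydig barcodes themselves, 6, 10, 73 and 80 held at least 3 UMIs of Cyp17a1, and 16, 8, 71 and 73 of Insl3. Few cultured barcodes reached this mark even inside the rule. The counts outside it therefore do not compare how many Leydig cells were missed.

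Hsd3b6, the isoform of the adult Leydig lineage, was seen almost only at 14 dpp. It lies next to Hsd3b1 (chromosome 3, 98805504 to 98814443, minus strand) and had 571 CPM (531 to 613) there, in 39 of 89 barcodes. At 9 dpp it had 0 UMIs, which allows up to 2.72 CPM over the summed barcodes, so 14 dpp was at least 210.2-fold higher against this floor of 3 UMIs per library. The cultures had 9.76 CPM (3.93 to 20.1) after 2 days and 25.9 CPM (15.1 to 41.4) after 7 days, each from 2 barcodes. The 7-day ratio to 14 dpp was −4.41 (−5.25 to −3.78). It was −2.91 after thinning to 2000 UMIs, −3.40 with each barcode weighted equally and −5.69 when at least 2 choosing genes were required. Of the 7 UMIs of the 2-day culture, 85.7% lay in 1 barcode. Their level was 3.59-fold that of the 9 dpp floor, a value that leaves out their own counting error. The log2 ratio of that pair was 3.43 with 1 CPM added and 0.98, below 2-fold, with 10 CPM added. Over all kept barcodes the level was 0.207 (0.0833 to 0.427), 0.707 (0.466 to 1.03), 0.0992 (0.0364 to 0.216) and 25.3 (24.1 to 26.7) CPM. Of these Hsd3b6 UMIs, 51.4% lay in Leydig barcodes at 14 dpp (756 of 1471) and 63.0% in the 7-day culture (17 of 27). The rest lay in barcodes outside the rule.

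Hsd3b1 and Hsd3b6 resemble each other, so the division of their reads is uncertain. Their longest annotated transcripts were identical at 81.2% of 1786 aligned bases and at 72.6% over the last 400, where 3′ reads fall, and shared 0 stretches of 91 bases, a length chosen here. Their printed windows were identical at 57.1% of 224 aligned bases. How far the counting kept the reads of both apart was not tested.

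Within the 14 dpp library, the 38 barcodes with at least 3 Hsd3b6 UMIs and the 50 with 0 differed in other genes as well. This split and its genes were chosen after the values were seen and carry no test, and median depth was 14310.5 UMIs with Hsd3b6 and 12539.5 without. Hsd3b1 was 1667 (1566 to 1774) CPM in those with Hsd3b6 and 3754 (3612 to 3899) in those without, and Cyp11a1 was 2405 (2283 to 2532) and 4642 (4484 to 4803). Those without Hsd3b6 held more Inha, the inhibin alpha subunit (1081 against 237 CPM), more of the cystatin Cst12 (1506 against 43.1) and more Adh1 (1299.8 against 355). Those with Hsd3b6 held more of the stromal genes Col1a2 (581 against 208 CPM), Dcn (629 against 321) and Mgp (466 against 171). Insl3 (742 and 696 CPM) and Srd5a1 (279 and 283) were close in both sets.

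**Figure D3:**
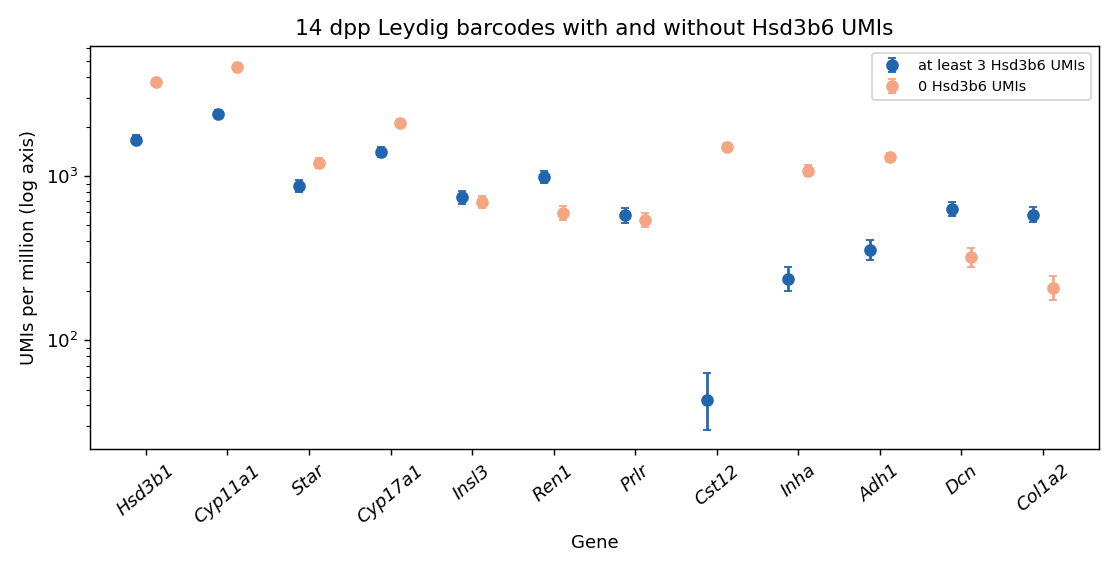
Levels of 12 genes at 14 dpp in the 38 Leydig barcodes with at least 3 Hsd3b6 UMIs and the 50 with 0, in CPM on a log axis with exact Poisson 95% intervals. Hsd3b1, Cyp11a1, Cst12, Inha and Adh1 are higher without Hsd3b6, and Dcn and Col1a2 are higher with it.

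Other enzymes of steroid handling followed several patterns. Srd5a1, a steroid reductase of immature adult Leydig cells, had 19.5, 56.3, 65.2 and 278 CPM and a ratio of 2.08 (1.72 to 2.48) at 14 against 9 dpp. The 7-day culture did not reach that level, with −2.28 (−2.83 to −1.81) against 14 dpp. Hsd11b1, which interconverts active and inactive glucocorticoids, was high only in the 2-day culture, with 272, 4.57, 9.96 and 4.53 CPM and a 2-day ratio of 4.64 (3.90 to 5.80). In that library it had 38.5 CPM in the other barcodes. Akr1c14, which reduces steroids further, was 9.76, 60.9, 15.4 and 18.1 CPM and higher in the 7-day culture by 1.69 (0.98 to 2.54). Hsd17b3, which makes testosterone, had 1, 0, 5 and 28 UMIs in Leydig barcodes, and 358 other barcodes at 9 dpp held at least 3 UMIs of it, so most of its transcripts lay elsewhere.

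Genes for proteins that hand electrons to the steroid enzymes were not all alike. Fdx1, the ferredoxin that serves Cyp11a1, had 1312, 1078, 1872 and 2720.2 CPM, with ratios of −0.51 (−0.63 to −0.40) and −1.34 (−1.45 to −1.22). Its reductase Fdxr had −0.36 (−0.63 to −0.11) and −1.45 (−1.76 to −1.17), and Por, the reductase that serves Cyp17a1, had −0.44 and −1.51. Cyb5a, the cytochrome b5 that serves Cyp17a1, went the other way, with 626, 557, 383 and 401 CPM and ratios of 0.71 (0.51 to 0.90) and 0.47 (0.28 to 0.67), both within 2-fold. The outer mitochondrial membrane protein Tspo was higher in the 2-day pair, with 785, 229.8, 187 and 345 CPM and a ratio of 2.06 (1.83 to 2.30). This was not particular to Leydig barcodes: over all kept barcodes Tspo had 369, 133, 70.0 and 90.6 CPM. Leydig barcodes held 4.52% of its 2-day UMIs.

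Counts by list are read against a background. Among 7092 genes with at least 50 UMIs over the 317 barcodes, 5.91% were at least 2-fold higher and 11.3% at least 2-fold lower in the 2-day culture than at 9 dpp, with a median of −0.09. For the 7-day culture against 14 dpp, 7.29% were higher and 8.21% lower, with a median of 0.05. Median-of-ratios scaling moved the median of all genes to 0.02 for the shorter culture and −0.03 for the longer one, and the split of calls from 419 higher and 799 lower to 529 and 636 in the 2-day pair. The lists were chosen with earlier results of these data known, so their counts are a description. Of the 13 measured genes of the steroid enzyme list, which includes the 3 choosing genes, 3 were at least 2-fold higher (Hsd3b6, Hsd11b1 and Tspo) and 3 lower (Hsd3b1, Cyp17a1 and Srd5a1) in the 2-day culture, with a median log2 ratio of −0.44. In the 7-day culture 1 was higher (Akr1c14) and 7 were lower (Star, Hsd3b6, Cyp17a1, Srd5a1, Fdx1, Fdxr and Por), with a median of −1.34.

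Genes of cholesterol synthesis that passed 2-fold were lower, and there were more of them in the 7-day pair. Of 20 measured, 0 were at least 2-fold higher and 5 were lower in the 2-day culture (median −0.54), and 0 were higher and 13 lower in the 7-day culture (median −1.14). Dhcr7, which acts late in the pathway, had 47.4, 45.7, 253 and 209 CPM and ratios of −2.39 (−2.97 to −1.90) and −2.17 (−2.79 to −1.64). Hmgcs1, an early enzyme, had 365, 338, 896 and 710.3 CPM and ratios of −1.29 (−1.50 to −1.10) and −1.07 (−1.29 to −0.86). In the other barcodes of the same libraries the list had medians of 0.19 and −0.16. The difference between Leydig and other barcodes was not tested.

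Uptake and storage of cholesterol were mixed. Scarb1, the receptor that takes up cholesterol from HDL, had 151, 129, 723 and 382 CPM, with ratios of −2.26 (−2.57 to −1.97) and −1.55 (−1.91 to −1.23). Apoe, a lipid carrier protein, was higher instead, with 2685, 4195, 959 and 2036 CPM and ratios of 1.48 (1.38 to 1.59) and 1.04 (0.97 to 1.12). It was also higher in both cultures over all kept barcodes, at 382, 1045, 189 and 204 CPM. Soat1, which esterifies cholesterol for storage, was 83.7, 100.5, 145 and 379 CPM and past 2-fold only in the 7-day pair, at −1.91 (−2.31 to −1.54). Abca1, which exports cholesterol, had ratios of −1.24 (−1.55 to −0.95) and −0.33 (−0.61 to −0.06), and Plin2, which coats lipid droplets, had 0.39 (0.00 to 0.78) and 0.59 (0.24 to 0.95). Of 12 measured genes, 2 were at least 2-fold higher and 5 lower in the 2-day culture, and 2 higher and 2 lower in the 7-day culture.

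Among receptors, Lhcgr was low only after 2 days in culture. Lhcgr (chromosome 17, 88716481 to 88791990, minus strand) had 22.3 (12.8 to 36.2) CPM after 2 days, 109.6 (85.7 to 138) after 7 days, and in vivo 138 (117 to 161) at 9 and 95.2 (79.3 to 113) at 14 dpp. Its ratio was −2.57 (−3.47 to −1.88) for the shorter culture and 0.20 (−0.24 to 0.63) for the longer one, and the 7-day culture was above the 2-day culture by 2.25 (1.50 to 3.18). Prlr, the prolactin receptor, had 119, 338, 240.0 and 558 CPM, with a ratio of −1.01 (−1.39 to −0.66) in the 2-day pair that was −0.20 once barcodes were thinned to 2000 UMIs. Igf1r, a growth factor receptor, was lower in both cultures, at −2.01 (−2.75 to −1.40) and −1.19 (−1.77 to −0.68), and Ghr, the growth hormone receptor, was higher after 7 days at 1.40 (0.55 to 2.40). Of 12 measured receptors, 0 were at least 2-fold higher and 4 lower in the 2-day culture, and 1 was higher and 1 lower in the 7-day culture.

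Among transcription factors, Nr5a1 and Crem were below 9 dpp after 2 days, and Crem was below 14 dpp after 7 days. Nr5a1, the nuclear receptor that drives steroid enzyme genes, had 79.5, 170.5, 256 and 106 CPM, with ratios of −1.68 (−2.13 to −1.27) and 0.68 (0.32 to 1.06). Crem, a gene of the cyclic AMP response, had 11.2, 10.7, 54.3 and 207 CPM and was lower in both cultures, at −2.19 (−3.56 to −1.21) and −4.16 (−5.61 to −3.22). After thinning it was seen in 5.08% and 6.62% of germ barcodes in culture, against 3.49% and 3.17% of Leydig barcodes. With the germ level subtracted the ratios were −5.18 and −7.37. Cebpb, a factor of inflammatory and hormone responses, had 273, 285, 171 and 40.0 CPM and was higher after 7 days by 2.80 (2.38 to 3.30). Gata6 was higher in both, at 1.97 (0.95 to 3.38) and 2.22 (0.94 to 4.32), on 5 to 25 UMIs per library, and Maf was lower in both, at −1.11 (−2.08 to −0.29) and −1.61 (−2.48 to −0.90). Of 12 measured, 1 was at least 2-fold higher and 5 lower after 2 days, and 3 higher and 2 lower after 7 days. Between the cultures themselves 1 of 12 was at least 2-fold higher after 7 days and 0 were lower.

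Ren1 and Cyp21a1, genes of the fetal Leydig list that also mark other steroid tissues, were far lower in culture. Ren1, which encodes renin (chromosome 1, 133350510 to 133360325, plus strand), had 131 (106 to 160.4) CPM after 2 days, 3.04 (0.369 to 11.0) after 7 days, and in vivo 4833 (4704 to 4964) at 9 and 767 (720.5 to 816) at 14 dpp. Its ratio was −5.19 (−5.51 to −4.91) after 2 days and, on 2 UMIs, −7.57 (−11.02 to −6.12) after 7 days. In vivo it was lower at 14 than at 9 dpp, at −2.65 (−2.75 to −2.56). Cyp21a1, an enzyme of adrenal steroids (chromosome 17, 34801348 to 34804561, minus strand), had 145 UMIs in 12 barcodes at 9 dpp and 19 in 10 barcodes at 14 dpp. It had 0 in the 2-day culture, at least 31.4-fold lower than 9 dpp against a floor of 3 UMIs, and 1 in the 7-day culture, with a ratio of −2.61 (−8.61 to −0.58). Of its 9 dpp UMIs, 43.4% lay in 1 barcode. Dlk1, the other measured gene of the list, had 33.5, 22.8, 109 and 12.8 CPM against 476 in other barcodes at 9 dpp. Of the fetal list, Ren1, Cyp21a1 and Dlk1 were at least 2-fold lower in the 2-day culture, and Ren1 and Cyp21a1 in the 7-day culture. Outside that list, Mrap, an accessory protein of the ACTH receptor, had 452, 137, 75.2 and 518 CPM, with ratios of 2.57 (2.24 to 2.95) and −1.91.

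The 12 barcodes with Cyp21a1 UMIs at 9 dpp, again a split made after the values were seen, held 4881 CPM of Cst12 against 344 in the other 62, and 817 against 138 of the apolipoprotein Apoc1. They held less of the protease gene Htra3 (122 against 878 CPM) and of Dcn (96.4 against 529). Their median depth was 19301 UMIs against 11563, and the part of depth in this split was not tested. Insl3 was 1663 and 1707 CPM in these sets.

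The adult and progenitor lists gave no common direction. Of 6 measured genes of the adult list, 2 were at least 2-fold higher and 2 lower in the 2-day culture, and 1 was higher and 2 lower in the 7-day culture. Of 8 progenitor genes, 1 was higher and 3 were lower in the 2-day culture, and 0 passed the 2-fold mark in the 7-day culture. The higher progenitor gene was Ly6a, a surface gene that interferon induces, with 272 CPM in Leydig and 305 in other barcodes of that library and 0 at 9 dpp. Among the lower ones were Tcf21 and Ptch1, a receptor of hedgehog signals, at −1.59 (−2.40 to −0.92).

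Among secreted products, the precursor of angiotensin did not follow renin. Agt had 513, 1135, 480.0 and 399.7 CPM, with ratios of 0.10 (−0.10 to 0.29) and 1.50 (1.34 to 1.67). Inhba, an activin subunit, had 34.9, 170.5, 48.0 and 19.6 CPM and was higher after 7 days by 3.05 (2.49 to 3.79). Of 7 measured genes, 2 were at least 2-fold higher and 2 lower in the 2-day culture, and 3 higher and 2 lower in the 7-day culture, the lower ones being Insl3 and Ren1 each time.

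Genes of inflammation were higher in cultured Leydig barcodes and in the other barcodes too. Of 28 measured genes, 20 were at least 2-fold higher and 0 lower in the 2-day culture (median 2.01), and 15 higher and 0 lower in the 7-day culture (median 1.39). With genes at 0 UMIs set to the floor the medians were 2.04 and 1.41. The other barcodes had medians of 2.71 and 2.15. Hp, which encodes haptoglobin (chromosome 8, 109575128 to 109579172, minus strand), had 2318 CPM (2208 to 2432) after 2 days in 59 barcodes, 228 CPM (193 to 268) after 7 days in 13, and 0 UMIs in both in vivo libraries. It was at least 853-fold and at least 101-fold higher, and it had 55.7 CPM in germ and 410.4 CPM in all other barcodes of the 2-day culture.

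Saa3, an acute phase protein of serum amyloid type (chromosome 7, 46711998 to 46715700, minus strand), had 12433 CPM in Leydig barcodes after 2 days (12176 to 12694), 709 CPM (646 to 777) after 7 days, 0 UMIs at 9 dpp and 11.3 CPM (6.34 to 18.7) at 14 dpp, where 86.7% of its UMIs lay in 1 barcode. All kept barcodes of the 2-day culture together held 10298 CPM, with 2.56% of these UMIs in Leydig barcodes. Germ barcodes of the 2-day culture also held 1342 CPM, and 41.2% of them showed a Saa3 UMI after thinning against 86.0% of Leydig barcodes. The 2-day culture was at least 4576-fold higher than 9 dpp in Leydig barcodes, a value that includes this free RNA. C3 of the complement system had 71.1, 63.9, 0 and 1.51 CPM, and 100.1 and 89.0 CPM in the other cultured barcodes. The chemokine Ccl2 had 563, 98.9, 1.81 and 4.53 CPM, with ratios of 7.65 (6.42 to 11.33) and 4.17 (3.25 to 5.95). The second was 6.98 when at least 10 choosing UMIs and 0.5% were required and 2.91 with 10 CPM added.

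The interferon list was higher after 2 days and mostly not after 7. Of 16 measured genes, 13 were at least 2-fold higher and 0 lower in the 2-day culture (median 3.36), and 2 were higher and 2 lower in the 7-day culture (median 0.29). With genes at 0 UMIs set to the floor the interferon medians were 3.45 and 0.32, and the other barcodes had 3.48 and 1.19. B2m, the light chain of class I MHC, had 4441, 1545, 637 and 784 CPM, with ratios of 2.80 (2.68 to 2.92) and 0.98 (0.85 to 1.11). The class I heavy chain H2-D1 had ratios of 4.73 (4.41 to 5.11) and 2.21 (1.92 to 2.53), and H2-K1 had 3.59 (3.34 to 3.88) and 1.22 (0.97 to 1.47). Both chains resemble each other in sequence, so their reads are uncertain, and they were the 2 genes past 2-fold higher after 7 days.

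**Figure D4:**
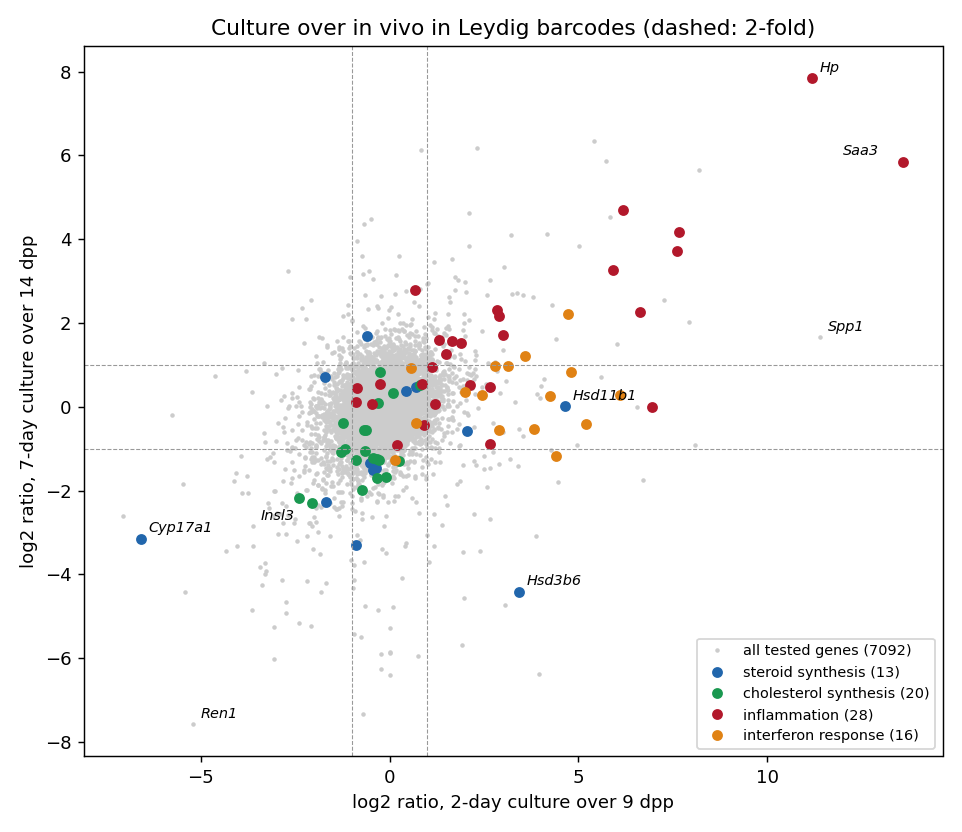
Log2 ratios in Leydig barcodes of the 2-day culture over 9 dpp (x axis) and of the 7-day culture over 14 dpp (y axis), with 1 point per gene, 7092 in all, and 4 lists in colour. Dashed lines mark 2-fold, and genes at 0 UMIs in 1 library sit where the added 1 CPM puts them. Ren1, Cyp17a1 and Insl3 lie lower in both pairs, Saa3 and Hp higher in both, and Hsd3b6 on opposite sides.

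The genes higher in both pairs with the widest margin were, besides Hp, Saa3, C3 and Ccl2 of the inflammation list, Wisp2, Spon1, Cyp1b1, Gsta3, Gm10260 and 1700016F12Rik. Wisp2, a matricellular protein, had 289, 202, 0 and 3.02 CPM in Leydig barcodes and 21.7 and 5.83 CPM in the other cultured barcodes. It was at least 106-fold higher after 2 days and higher by 5.66 (4.68 to 7.96) after 7 days. Gsta3, a glutathione transferase, had 413, 122, 11.8 and 7.56 CPM and ratios of 5.02 (4.34 to 6.06) and 3.84 (3.06 to 5.12). Spon1, an extracellular matrix protein, had 41.8, 142, 0 and 0.756 CPM, and the cytochrome gene Cyp1b1 had 107, 39.6, 0.906 and 0.756. The RIKEN gene 1700016F12Rik had 148, 56.3, 7.25 and 2.27 CPM. The predicted gene Gm10260 also differed in germ barcodes (328 CPM in the 2-day culture and 5.35 at 9 dpp), so it did not set Leydig barcodes apart.

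Genes lower in both pairs with the widest margin were Ren1, Cyp17a1, Insl3, Csrp2, Kcnk3, Slc16a3, Syne4, Olfr889, Gm37350 and Cst9. Csrp2, a LIM domain protein, had 58.6, 86.8, 399 and 719 CPM, with ratios of −2.75 (−3.26 to −2.31) and −3.04 (−3.46 to −2.67). Kcnk3, a potassium channel, had 78.1, 120.2, 733 and 595 CPM, with −3.21 (−3.65 to −2.84) and −2.30 (−2.66 to −1.97), the second at −1.53 over barcodes with at least 1000 genes and at most 10% mitochondrial UMIs. Slc16a3, a lactate transporter, had 3 UMIs in each culture and ratios of −3.37 (−5.97 to −2.03) and −4.24 (−6.81 to −2.94). Syne4, a nuclear envelope protein, had 3 and 1 UMIs in the cultures, 49.8 and 39.3 CPM in vivo. The predicted gene Gm37350 had 4.18, 13.7, 62.5 and 147 CPM. Olfr889, an olfactory receptor gene, had 6.97, 13.7, 84.2 and 206 CPM, and at 9 dpp 94.1 CPM in germ barcodes. Its 2-day ratio was 0 once the germ level was subtracted. For Cst9, 1 barcode held 73.5% of the 9 dpp UMIs. At 14 dpp, 47 of its UMIs lay in 30 of the 83 barcodes with fewer than 3 UMIs of the macrophage list. Its ratio was 0 in both pairs once the level in germ barcodes was subtracted.

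From 9 to 14 dpp in vivo, Hsd3b6 and macrophage genes were among the leading higher genes, and Htra3 and Cyp26b1 among the leading lower ones. Of the 7092 genes, 3.71% were at least 2-fold higher and 5.87% lower at 14 dpp. 9230104L09Rik was also among the leading higher genes, with 1.81 and 75.6 CPM, while Ren1, Cyp21a1 and Dlk1 were all lower, Dlk1 at −2.99 (−3.91 to −2.34). Htra3 had 715 CPM at 9 dpp and 52.1 at 14 dpp, a ratio of −3.75 (−4.15 to −3.42), and Cyp26b1, which breaks down retinoic acid, had 299.8 and 20.4, a ratio of −3.81 (−4.50 to −3.31). The imprinted RNA H19, the interferon-inducible Ifi204 and Gsg1l had 36, 34 and 33 UMIs at 9 dpp and 0 at 14 dpp, so they were at least 14.4, 13.6 and 13.2-fold lower. The predicted gene Gm10320 was lower too, at −4.78 (−6.75 to −3.85), with 76.0 and 3.17 CPM in germ barcodes. Crem at 1.91 (1.52 to 2.36), Prlr at 1.21 (1.01 to 1.42) and Mrap at 2.77 (2.45 to 3.13) were higher at 14 dpp. Of 20 cholesterol synthesis genes, 5 were at least 2-fold higher and 0 lower, with a median of −0.14. By any amount, 8 were higher and 12 lower. Of 16 interferon genes 6 were higher and 0 lower, of 28 inflammation genes 9 and 1, of 21 oxidative stress genes 7 and 2, and of 21 proliferation genes 5 and 0. Of 12 transcription factors 1 was higher and 4 were lower, and of 20 matrix and wound genes 2 and 5.

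Lyz2, C1qa, Pf4 and Fcer1g, macrophage genes among the leading higher ones at 14 dpp, lay in few barcodes. They had 111, 76, 75 and 67 UMIs at 14 dpp and 0 at 9 dpp. Without the 6 barcodes that held at least 3 UMIs of the macrophage list, 2, 0, 3 and 7 UMIs were left, a split chosen after the values were seen. Hsd3b6 had 572 CPM over the 83 barcodes that stayed, Cyp17a1 1813 and Insl3 719, against 571, 1783 and 709.5 with them. With TMM scaling, which equalizes the bulk of genes, the split of calls was 331 higher and 314 lower against 263 and 416 without it.

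In the 7-day against the 2-day culture, most genes of the interferon and matrix lists were lower, and some Leydig genes were higher. Of the 7092 genes, 7.26% were at least 2-fold higher and 6.54% lower. Hsd3b1 at 1.59 (1.49 to 1.70), Prlr at 1.50 (1.14 to 1.89) and Nr5a1 at 1.09 (0.63 to 1.59) were higher, as were Cyp17a1 and Lhcgr above. Star at −2.20 (−2.60 to −1.84) and, on 2 UMIs, Ren1 at −5.03 (−8.50 to −3.54) were lower. Gas6, a ligand of TAM receptors, had 662 (604 to 725) CPM after 2 days, 4052 (3899 to 4209) after 7 days, and in vivo 555 (512 to 601) at 9 and 331 (301 to 363) at 14 dpp. It was in 62 of 64 barcodes of the 7-day culture, above the 2-day culture by 2.61 (2.47 to 2.76) and above 14 dpp by 3.61 (3.47 to 3.76), with 175 CPM in the other barcodes. The metal-binding Mt3 was higher by 3.86 (2.94 to 5.22), and Bpifb5 had 0 and 81 UMIs, at least 29.5-fold higher. Pla2g1b had 0 and 32 UMIs, and the kallikreins Klk1b24 and Klk1b21, near-identical relatives whose reads are uncertain, had 0 and 57 and 0 and 27.

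Genes lower after 7 days than after 2 were led by Spp1, Nupr1, Ly6a, Cxcl14, Il33 and Hsd11b1. Spp1, which encodes osteopontin, had 2682, 4.57, 0 and 0.756 CPM, and 54.8% of its 2-day UMIs lay in 1 of 24 barcodes. Nupr1, a stress gene, had 347, 1.52, 22.6 and 20.4 CPM and a ratio of −7.11 (−13.14 to −5.34). The cytokine Il33 had 87 UMIs after 2 days, 77.0% in 1 barcode, and 0 after 7 days. Of 28 inflammation genes 3 were at least 2-fold higher and 11 lower, and of 16 interferon genes 0 were higher and 13 lower. Of 20 matrix and wound genes 1 was higher and 12 lower, of 21 oxidative stress genes 0 and 5, and of 21 proliferation genes 0 and 6. Of 13 heat shock genes 4 were higher and 0 lower, and of 18 immediate early genes 3 were higher and 0 lower.

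The 2-day barcodes are described here in splits by Hsd3b1 and Spp1, chosen after the values were seen. Hsd3b1 was 1 of the 3 genes that chose the barcodes, so those without it entered through Cyp11a1 or Star. Median depth was 7986.5 UMIs with at least 3 UMIs of Hsd3b1 and 6308 with 0, and 8495 and 6051 for Spp1, and its part in the values was not tested. The 31 with 0 Hsd3b1 UMIs held 21137 CPM of Saa3, 4395 of Hp and 450.2 of the collagen Col1a1. The 44 with at least 3 held 7674, 954 and 41.7, and more of Agt (802 against 135) and Adh1 (3387 against 900.4). Cyp17a1 was 83.4 CPM with Hsd3b1 and at 0 UMIs without, and Insl3 was 172 and 78.9. The 19 barcodes with at least 3 Spp1 UMIs held more of Timp1, a protease inhibitor (3939 against 974 CPM), and of S100a6 (819 against 64.1), and less of the fatty acid carrier Fabp3 (27.9 against 730.0).

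In the 7-day culture, the 28 barcodes with an Insl3 UMI and the 36 without differed in other genes, again by a split made afterwards. Cyp11a1 was 6769 CPM with Insl3 and 2536 without, and Saa3 was 1222 and 177. Those without Insl3 held more Inha (2017 against 845 CPM) and more Agt (1707 against 585). Hsd3b1 was 4140.1 and 5083. Median depth was 11253 UMIs with Insl3 and 8078 without.

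Counts of immediate early, heat shock and oxidative stress genes differed between the pairs, while no respiration gene was past 2-fold in either. Of 18 immediate early genes, 2 were at least 2-fold higher and 8 lower in the 2-day culture (median −0.59, and −1.21 after thinning), among them the phosphatase gene Dusp1 at −1.93 (−2.39 to −1.52) and Klf4 at −2.05 (−2.89 to −1.37). In the 7-day culture 2 were higher and 4 lower (median 0.19), while other barcodes had medians of 0.54 and 1.71. Of 13 heat shock genes, 1 was higher and 4 lower after 2 days and 1 higher and 1 lower after 7 days, and the mitochondrial chaperonin Hspe1 was lower in both, at −1.37 (−1.52 to −1.23) and −1.82 (−1.95 to −1.70). Of 21 oxidative stress genes, 9 were higher and 0 lower after 2 days and 3 higher and 4 lower after 7 days, with the metallothionein Mt2 at 2.28 (2.04 to 2.54) and 1.24 (1.09 to 1.40). The superoxide dismutase Sod2 had 2.13 (1.91 to 2.37) and 0.52 (0.26 to 0.78). Of 20 mitochondrial respiration genes, 0 were higher and 0 lower in either pair, with Cox6c, a subunit of cytochrome oxidase, at −0.82 (−0.94 to −0.70) and −0.76 (−0.87 to −0.65).

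Counts of proliferation and matrix genes differed between the pairs. Of 21 proliferation genes, 7 were at least 2-fold higher and 1 lower in the 2-day culture (median 0.68), and 0 higher and 5 lower in the 7-day culture (median −0.38). The ubiquitin enzyme gene Ube2c had a 2-day ratio of 1.57, with 76.3% of its 2-day UMIs in 1 barcode and 170.2 CPM in germ barcodes. The 2-day median was −0.40 over genes with at least 200 UMIs and −0.37 after thinning, and the 7-day median was −1.39 over genes with at least 200 UMIs. Of 20 matrix and wound genes, 8 were higher and 3 lower after 2 days (median 0.68) and 3 higher and 3 lower after 7 days (median −0.29), with Col1a1 at 1.98 (1.54 to 2.48) and 2.01 (1.09 to 3.25). Without the barcodes that held at least 3 Spp1 UMIs the 2-day matrix median was 0.12. Of 14 hypoxia and glycolysis genes, 2 were higher and 1 lower after 2 days and 0 higher and 1 lower after 7 days, with the hexokinase Hk2 lower in both at −2.00 (−3.13 to −1.14) and −1.28 (−2.19 to −0.53).

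**Figure D5:**
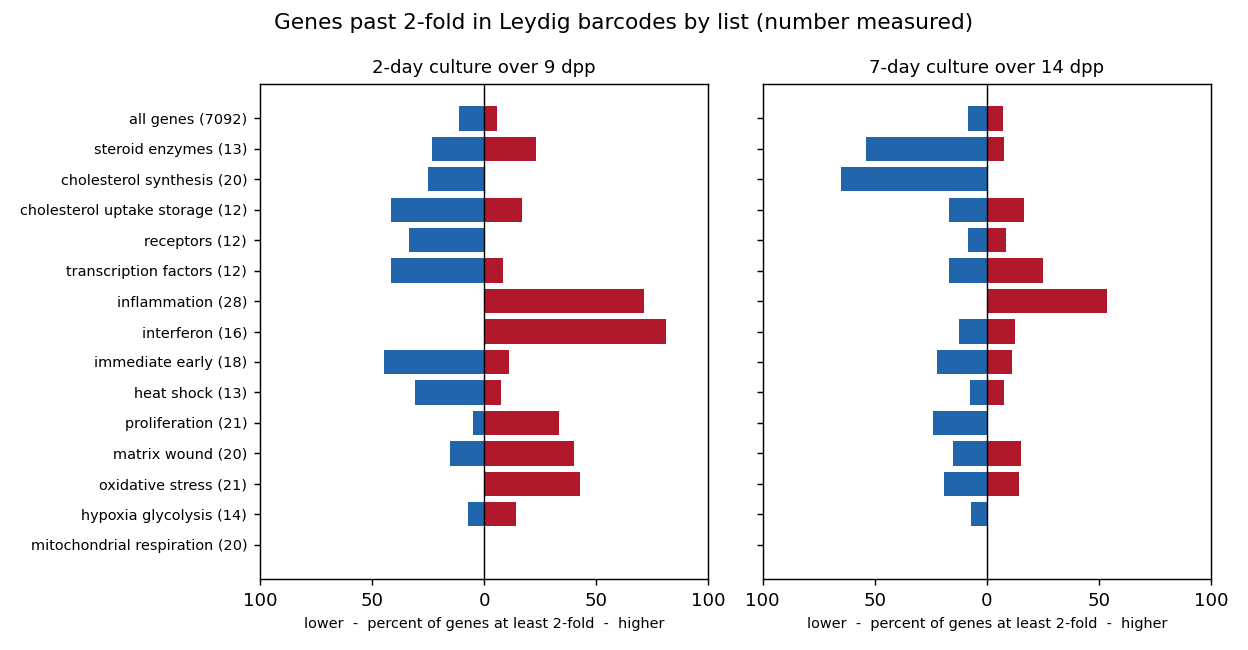
Percent of the measured genes of each list that were at least 2-fold higher (red, to the right) or lower (blue, to the left) in Leydig barcodes, for the 2-day culture over 9 dpp and the 7-day culture over 14 dpp, with the number measured in parentheses and all tested genes on top. Inflammation lies to the right in both pairs (20 and 15 of 28), interferon in the 2-day pair (13 of 16), and cholesterol synthesis to the left, most in the 7-day pair (13 of 20).

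Outside the genes that chose them, the summed Leydig barcodes of every library held more of a set of transcripts than the other barcodes did, given as a description because the rule drew the same contrast. The smallest log2 ratio over the 4 libraries against the other kept barcodes was largest for Adh1 (6.50), a retinol and alcohol dehydrogenase, and next for Hao2 (5.92), an oxidase of hydroxy acids. Insl3 (5.66), Cyp17a1 (5.40), Kcnk3 (4.96) and Lhcgr (4.34) were among the 15 leading genes although Insl3, Cyp17a1 and Kcnk3 were low in culture. Some of these sums rest on few barcodes: after 2 days Cyp17a1 had 36 UMIs in 14 of 90 and Lhcgr 16 UMIs in 14 of 90, and 43 of 90 had neither Insl3 nor Cyp17a1. Agt (4.48), the apolipoprotein Apoc1 (4.34), the oxytocin receptor Oxtr (3.98), the water channel Aqp2 (3.95) and Bhmt (4.16), an enzyme of methionine metabolism, also belonged to it. Adh1 had 2473 (2359 to 2591) CPM after 2 days, 960.4 (887 to 1038) after 7 days, and in vivo 1227 (1163 to 1294) at 9 and 887 (837 to 939) at 14 dpp, and no more than 18.6 CPM in the other barcodes of any library. Its ratios were 1.01 (0.91 to 1.11) and 0.11 (−0.03 to 0.26), so its level was not lower in culture, unlike those of Cyp17a1 and Insl3.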

How the data were processed

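Testis data of 4 libraries from the 10x Chromium 3′ v2 chemistry were used as the authors deposited them: whole-number UMI counts per gene and barcode, not normalized. Per the submitters' processing notes, Cell Ranger 3.0.2 and the mouse build mm10 were used. Features (31053) were summed by symbol to 31017, since 36 symbols had several identifiers. Barcodes were filtered and members chosen as the report states. The members and the gene lists were chosen with earlier results of these data known.

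Raw counts were summed over the members of each library and scaled to CPM. Levels carry exact Poisson 95% intervals, ratios an exact conditional binomial interval of the counts without the added 1 CPM, and shares a Clopper-Pearson interval. These cover counting error only, and UMIs of 1 barcode are not independent cells or animals. A gene was called when its ratio was at least 2-fold, among genes with at least 50 UMIs over all members and without mitochondrial genes. With 1 library per group no test was possible and no p-value is given. Folds given as at least a value set a library with 0 UMIs to 3 counts and leave out the counting error of the other library. Germ barcodes, used as a measure of free RNA, had at least 5 UMIs of Ddx4 and Dazl and at most 1 UMI of each choosing gene. Scrublet (in scanpy 1.11.5, expected rate 6%) called 253, 93, 143 and 143 doublets among 7130, 4909, 5293 and 6338 kept barcodes, and called barcodes were kept. For 14 dpp the 1 called member stayed in as well.

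Named genes were the members of the Leydig role lists, the 10 higher and 10 lower genes of both culture pairs, the 6 and 6 of the other comparisons, the 15 leading genes against other barcodes, and up to 3 and 3 of each other list, ranked by the interval bound nearest to 0. Some genes that meet the rule are not reported here. Genes named outside that rule, among them Mrap, Inha, Cst12, Mgp, Dcn, Col1a2, S100a6 and Fabp3, were chosen after their values were seen, as were the within-library splits. Alternatives covered the member rule, cell filter, doublets, other cell types' markers, depth, weighting, added constant, scaling, low-count minimum and free RNA. Intervals were tested on simulated counts with known ratios. Python 3.11.15, numpy 2.4.6, scipy 1.17.1, pandas 2.3.3, R 4.3.3 and edgeR 4.0.16 (for its TMM scaling factors only) were used. Positions follow GENCODE on GRCm38.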

Additional observations from a re-analysis of the deposited data

Results flagged for a closer look

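The genes in this paragraph lay on opposite sides in the culture pairs, higher than in vivo after 2 days and lower after 7 days. Each group is 1 library, so the difference between the pairs was not tested. Hsd3b6 had a log2 ratio of 3.43 after 2 days, on 7 UMIs against 0 and so set in part by the added 1 CPM, and −4.41 after 7 days. Mgp, a matrix protein of stromal cells, had 4.47 and −1.80, with levels of 481, 86.8, 20.8 and 305 CPM in the order 2 days, 7 days, 9 dpp and 14 dpp. It had 1382 and 132 CPM in the other barcodes of the 2-day culture and of 9 dpp. Timp1, an inhibitor of matrix proteases, had 3.41 and −1.41, with 1725, 107, 161 and 284 CPM. Rrm2, which serves DNA synthesis, had 1.52 and −2.35 on 46, 2, 24 and 26 UMIs, and its level in germ barcodes was above that in Leydig barcodes in all 4 libraries. Srxn1, an enzyme of the oxidative stress response, had 3.04 and −4.74 on 32, 0, 5 and 34 UMIs, so the second is set in part by the added 1 CPM.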

How the results depend on the processing

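No paired analysis was possible because each group is 1 library and the labels carry no replicate numbers. Alternatives were run for part of the named genes, and for single genes in the culture pairs with 9 and 14 dpp only. Among the ratios so recomputed, none that was called turned its sign. Of the recomputed summary values 228 stayed close to their reported value and 44 moved. The 44 are given here. Of the recomputed values of single genes and lists, 1487 stayed close and 163 moved, and most of those are not printed. Numbers of genes past 2-fold moved most with depth and with the minimum, and are given as higher and lower. For the 2-day culture over 9 dpp they were 148 and 163 after thinning, 273 and 428 with 10 CPM added, 1863 and 2298 with a minimum of 1 UMI, 133 and 216 with a minimum of 200 UMIs, and 912 and 1360 with the germ level subtracted. For the 7-day culture over 14 dpp they were, in the same order, 137 and 178, 243 and 338, 2136 and 1995, 117 and 184, and 1158 and 977. For 14 over 9 dpp they were 111 and 130, 161 and 196, 1178 and 1584, 89 and 77, and 681 and 1151, and 167 were higher under the stricter member rule (at least 10 choosing UMIs and 0.5%). For the 7-day over the 2-day culture they were 97 and 139, 218 and 248, 2266 and 2379, 121 and 121, and 1067 and 928. Thinning left 1893 genes to compare, the lower minimum 15540 and the higher one 2763, against 7092. With the germ level subtracted, the cholesterol synthesis medians were −1.84 and −2.04, and with 10 CPM added the interferon median of the 2-day pair was 2.29. TMM scaling gave 428 higher and 661 lower genes in the 7-day pair and 482 and 694 in the 2-day pair. Over 16 alternatives, the Insl3 ratios ran from −3.70 to −3.33 and from −3.25 to −2.74, those of Cyp17a1 from −6.86 to −6.12 and from −4.17 to −3.00, and those of Ren1 from −5.33 to −4.89 and from −9.57 to −5.90. Leaving out barcodes with any 3 UMIs of the full macrophage, Sertoli and endothelial lists was not run, since 14, 13, 7 and 4 members were left. A version with defining markers, the requirement of 2 choosing genes and the removal of Spp1 barcodes were added after the data were seen. In the 2-day culture, 1 UMI was 1.39 CPM, and a count of 0 allows a level of up to 4.18 CPM there.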
